A study of Mus musculus with 8 samples.

Results

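The 52 genes described here encode the machinery that copies DNA in S phase and the regulators that start it. They were taken by symbol from a list drawn up with earlier results of these data known, under a rule that sets no threshold on a measured value, and are grouped into 9 classes: the MCM2-7 helicase, the origin recognition complex (ORC), the factors that load and activate the helicase together with Mcm8, the replicative polymerases and primase, the sliding clamp and its loader, the single-strand binding protein RPA, Okazaki fragment maturation, deoxynucleotide supply and regulators of S-phase entry. All 52 were present among the 23997 symbols measured in each library, and all 52 passed the filter of a mean of at least 1 FPKM that 12537 genes passed.

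The libraries are poly(A) RNA-seq of mouse neural stem/precursor cells, a dividing population that gives rise to neurons and glia. Cells were taken from the telencephalon of ICR embryos at E11.5 (the stage label says E11) and grown as primary cultures with 10 ng/mL basic fibroblast growth factor in both groups. The 3 Nfia libraries came from cells transduced with Nfia, a transcription factor of the nuclear factor I family known for its part in the switch to gliogenesis, and the 3 control libraries from control cells; both were collected 3 days after transduction. The labels name neither the vector nor what the control cells received, and leave unsaid whether replicate libraries were separate cultures, so each p-value reflects library-to-library spread that may be only technical.

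Nfia itself stood at 69.0, 85.6 and 103.5 FPKM in Nfia libraries 1, 2 and 3, against 19.8, 23.9 and 22.2 FPKM in control libraries 1, 2 and 3 (log2 difference 1.91, SE 0.14, limma adjusted p = 0.000413). FPKM is a level per length of the gene model and per mapped fragments of a library. The relative depth, read from the steps between low values, was 1.11, 0.911 and 0.760 of that of control 1 in the Nfia libraries, and 0.906 and 0.912 in control 2 and control 3. Markers of microglia summed to 1.83 to 2.32 FPKM in Nfia libraries and 2.56 to 2.96 FPKM in control libraries, and none of the 8 passed the filter. Erythroid markers summed to 0.560 to 0.923 FPKM in Nfia libraries and 0.580 to 1.5 FPKM in control libraries, with 0 of 6 past the filter. Endothelial markers summed to 1.55 to 2.13 FPKM in Nfia libraries and 2.49 to 3.42 FPKM in control libraries, and Cldn5, the 1 of 5 past the filter, fell. Aif1 of the microglia list and Hbb-bt of the erythroid list were listed at 0 in all 3 Nfia libraries. Mesenchyme markers summed to 7.10, 18.2 and 17.03 FPKM in the Nfia libraries and 9.15, 19.4 and 18.5 FPKM in the control libraries, so library 1 was the lowest in both groups. For this reason the counts below were also taken with both libraries numbered 1 left out, a check added after the values were seen.

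Before S phase, ORC binds origins and, with Cdc6 and Cdt1, loads the MCM2-7 ring onto DNA. At S-phase entry the kinases Cdc7-Dbf4 and cyclin E-Cdk2 convert the loaded ring into an active helicase with Cdc45 and the GINS proteins, and primase, the polymerases, PCNA and the ligase then build the new strands. Many of these genes are induced together by E2F transcription factors, and in the developing telencephalon their transcripts are carried by cycling progenitors and lost as neurons leave the cell cycle.

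The E2F site is the regulatory sequence best known to join these genes, so the promoter windows were searched for it first. Windows ran from 250 bases before to 50 bases after an annotated start (RefSeq, build GRCm38.p6), and 44 of the 52 genes had at least 1 in the table used. A gene can have several starts, as 32851 windows stood for 27025 genes. The E2F words searched were TTTCCCGC, TTTCGCGC, TTTGCCGC and TTTGGCGC on both strands. One or more stood in the windows of 17 of the 44 genes (38.6%), against 704 of the 27025 genes with a window (2.60%) and 453 of the 9193 genes with a window that were tested for expression (4.93%). Below are the 250 bases before the annotated start used for Orc1, the gene with the largest difference, and for Cdk2. Both are printed 5′ to 3′ on the gene's own strand in lower case with the E2F word in capitals. The Orc1 stretch, and the Mcm7 stretch further below, precede the start used but lie inside the gene's annotated span.

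Orc1, chr4:108579204-108579453, forward strand: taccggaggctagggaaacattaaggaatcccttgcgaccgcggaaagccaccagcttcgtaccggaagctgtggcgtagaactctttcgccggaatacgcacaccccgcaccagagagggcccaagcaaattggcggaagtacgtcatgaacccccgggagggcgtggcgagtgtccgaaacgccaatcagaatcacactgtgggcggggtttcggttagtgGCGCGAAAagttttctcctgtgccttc
Cdk2, chr10:128705052-128705301, reverse strand: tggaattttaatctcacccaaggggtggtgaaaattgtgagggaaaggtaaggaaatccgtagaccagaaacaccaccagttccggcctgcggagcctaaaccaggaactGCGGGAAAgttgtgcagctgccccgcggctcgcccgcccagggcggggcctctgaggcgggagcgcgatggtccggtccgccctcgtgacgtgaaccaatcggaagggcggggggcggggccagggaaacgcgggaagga

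The word of Orc1 began 27 bases before the start, and that of Cdk2 began 140 bases before it. Pole2 and Pold1 are the other members of the 4 with the smallest adjusted p among the genes that hold a word (Lig1 tied with Cdk2), and in both the word lay just after the start. The 4 MCM ring genes with a word were added after their values were seen. For these 6 genes, 30 bases around the first word are shown in the same way.

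Pole2, chr12:69228162-69228191, reverse strand: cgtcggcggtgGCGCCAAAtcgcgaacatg
Pold1, chr7:44548766-44548795, reverse strand: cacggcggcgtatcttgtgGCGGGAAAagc
Mcm3, chr1:20820275-20820304, reverse strand: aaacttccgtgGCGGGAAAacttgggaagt
Mcm5, chr8:75109345-75109374, forward strand: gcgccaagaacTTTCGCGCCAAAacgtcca
Mcm6, chr1:128359797-128359826, reverse strand: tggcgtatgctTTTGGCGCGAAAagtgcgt
Mcm7, chr5:138172030-138172059, reverse strand: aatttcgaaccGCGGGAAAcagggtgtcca

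In Mcm5 and Mcm6 a word on each strand overlapped the other, so that the capitals run over 12 bases. Mcm6 held 3 words in its window, Mcm3, Mcm5, Mcm7 and Rfc3 held 2, and each of the other 12 genes held 1. The CCAAT box and a nuclear factor I site were also searched on both strands. CCAAT stood in the windows of 27 of the 44 genes (61.4%), against 41.1% of all genes with a window. The palindrome of the nuclear factor I family, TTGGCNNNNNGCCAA, stood in the windows of 0 of the 44 genes, against 12 of the 27025 genes (0.0444%). A match of letters is a description and not evidence of binding.

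**Figure D1:**
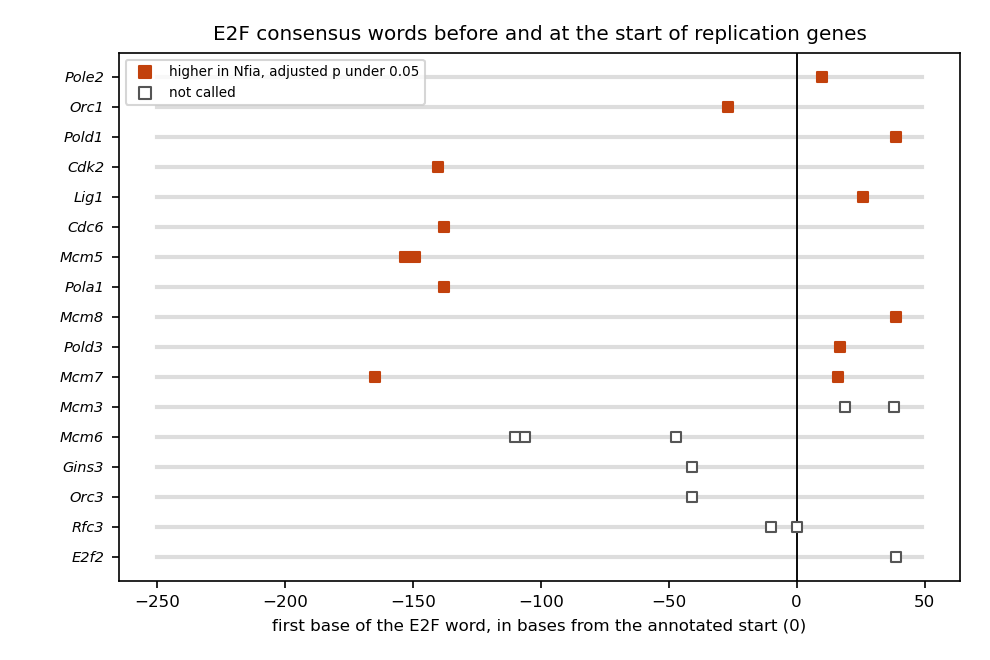
Position of each E2F word (filled points, genes called higher; open points, genes not called) in the promoter windows of the 17 genes that hold one; the x axis is the distance in bases from the annotated start and each row is a gene with its window as a bar. The words lie between 165 bases before and 39 bases after the start, and 11 of the 17 genes were called higher in Nfia cells, against 16.1% of all genes.

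Of the 52 replication genes, 27 (51.9%) rose in Nfia cells and 0 fell at an adjusted p under 0.05 (limma on log2(FPKM + 1), adjusted over all genes tested). Over all 12537 genes, 31.3% were called, 16.1% higher and 15.1% lower. At an unadjusted p under 0.05 the counts for the 52 genes were 33 higher and 0 lower. The differences were small: the median over the 52 genes was 0.23 on the log2(FPKM + 1) scale, against 0.01 over all genes, and they ran from -0.13 for E2f1 to 0.70 for Orc1. In 34 of the 52 genes (65.4%) every Nfia library lay above every control library, against 24.7% of all genes, and in 0 of the 52 did every Nfia library lie below, against 22.9% of all genes. Summed over the 52 genes, the level was 2747, 2562 and 2413 FPKM in the Nfia libraries, against 2219, 2180 and 2071 FPKM in the control libraries. With 3 libraries in each group the smallest p of an exact permutation test is 0.1, so the calls rest on limma's moderated test.

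**Figure D2:**
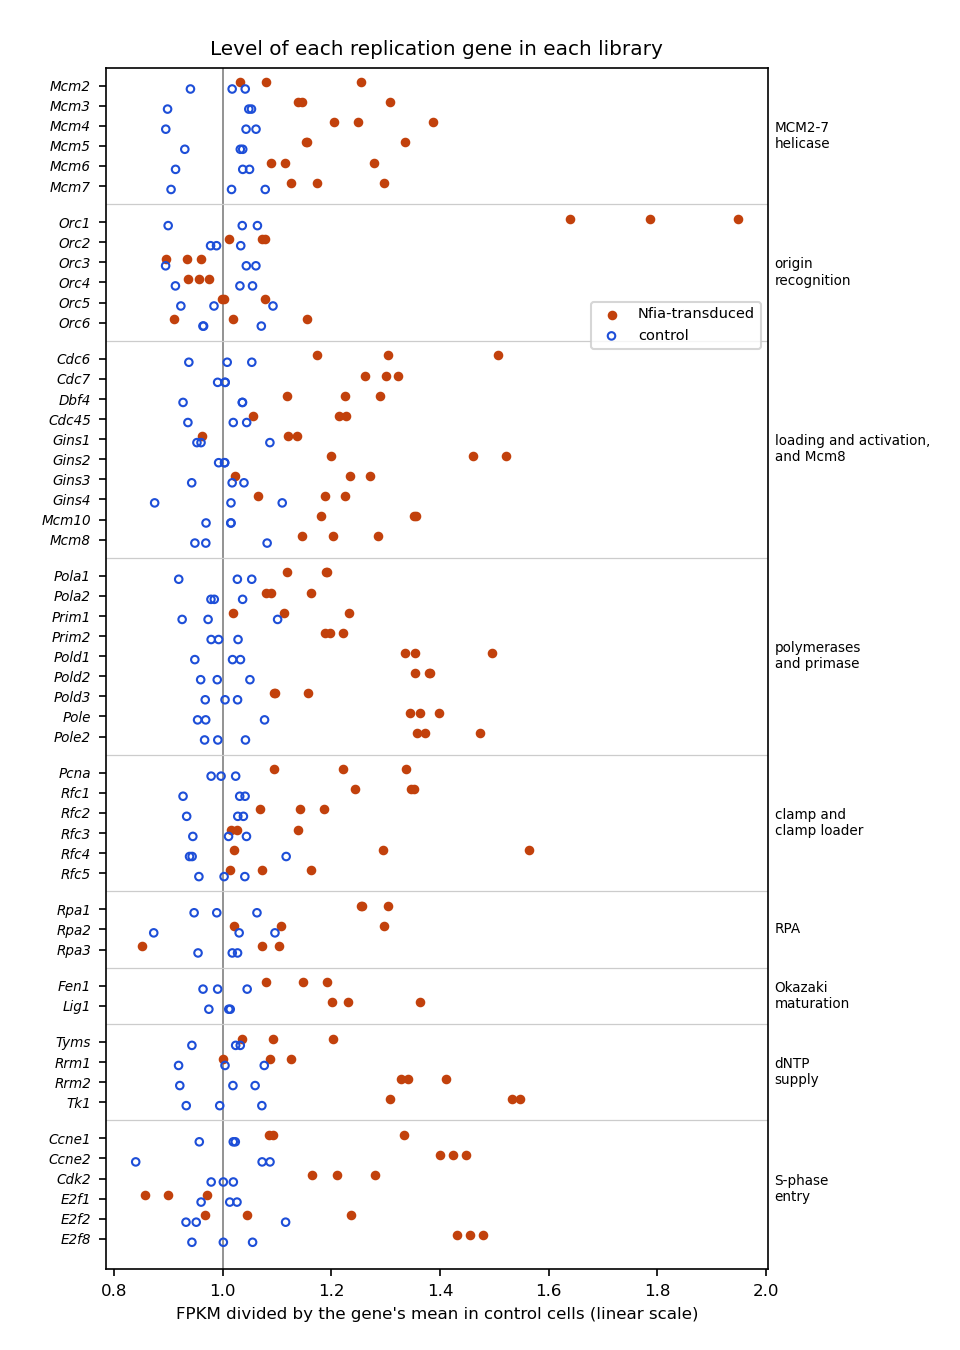
Level of each of the 52 genes in each library, as FPKM divided by the mean of the control libraries (x axis, linear scale), for Nfia (filled points) and control cells (open points), by class. The 3 Nfia points lie to the right of all 3 control points in 34 genes, and Orc1 stands farthest out at 1.79 times the control mean.

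Of the 27 calls, 17 held whichever single library was left out and 12 held in all 16 alternative settings, the check without both libraries numbered 1 included. The share of all genes called higher was 13%, 10.3% and 12.8% without Nfia 1, Nfia 2 and Nfia 3, and 11.9%, 12.7% and 11% without control 1, control 2 and control 3. With both libraries numbered 1 left out, 13 genes were called higher and 0 lower, all 13 among the 27, while 8.04% of all genes were called higher and 7.58% lower.

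The libraries of a group also differed in a shared way. Among the Nfia libraries, Nfia 1 was the highest in 37 of the 52 genes and Nfia 3 the lowest in 33, against 36.3% and 34.8% of all tested genes. In control cells, control 1 was the highest in 28 of the 52 genes and control 3 the lowest in 33, against 36.2% and 33.3% of all tested genes. The median level over the 52 genes, as log2(FPKM + 1) minus the control mean of the gene, was 0.34, 0.22 and 0.14 in Nfia libraries 1, 2 and 3, and 0.04, 0.02 and -0.05 in control libraries 1, 2 and 3. By the values above, Nfia 1 was the deepest of the Nfia libraries and had the lowest Nfia level, and Nfia 3 was the shallowest and had the highest Nfia level. The part of depth and of the Nfia level in the differences was not tested.

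Neuron markers moved the other way. Of 15, 13 fell in Nfia cells (15.1% of all genes were called lower) and 1, Nefl, rose (a call that ended without Nfia 2 or Nfia 3, adjusted p of 0.0686 and 0.0562). Of the 13 that fell, Gap43, Snap25, Syp and Mapt also lost their calls with a single library left out: Gap43 and Syp without Nfia 2 (0.0566 and 0.0518), Snap25 without control 3 (0.0538), and Mapt without Nfia 2, control 1, control 2 or control 3 (0.0521 to 0.0805). All 15 neuron markers together summed to 1337 to 1360 FPKM in Nfia libraries and 2054 to 2159 FPKM in control libraries. Tubb3, a tubulin of young neurons, averaged 306 ± 14.7 FPKM in Nfia cells and 609 ± 38.8 FPKM in control cells (SD, n = 3 each). The 12 stem/precursor markers were mixed, with 5 higher and 4 lower. They summed to 5553 to 6622 FPKM in Nfia libraries and 5597 to 6082 FPKM in control libraries, mostly Fabp7 and Vim. Fabp7, which was not called, averaged 2957 ± 461 FPKM in Nfia cells and 3426 ± 200 FPKM in control cells. Vim rose, at 2443 ± 84.9 FPKM in Nfia cells and 1888 ± 107 FPKM in control cells. Notch1, Nes, Slc1a3 and Hes1 also rose, with ratios of mean FPKM, Nfia over control, from 2.07 for Notch1 to 1.47 for Hes1. Pax6, Sox1, Msi1 and Hes5 fell, with ratios from 0.618 for Pax6 to 0.738 for Msi1. Sox2 was not called (log2 difference 0.06, limma adjusted p = 0.437). Of these calls, that of Vim, which was higher, ended without any library but Nfia 3 (0.0529 to 0.0937), and that of Hes5, which was lower, without Nfia 2, control 1 or control 2 (0.0590 to 0.0650). The 7 oligodendrocyte lineage markers were also mixed, with 2 higher, 2 lower and a median difference of -0.31. Their sum, at 1054 to 1115 FPKM in Nfia libraries and 363 to 410 FPKM in control libraries, was mostly Olig1 (690 ± 18.5 FPKM in Nfia cells and 227 ± 13.5 FPKM in control cells) and Olig2 (373 ± 15.6 FPKM in Nfia cells and 136 ± 9.48 FPKM in control cells), while Pdgfra and Mbp fell (-0.64 and -0.60). Of 5 astrocyte markers tested 1 rose and 2 fell, with a median of -0.05. Their sum of 255 to 264 FPKM in Nfia libraries and 192 to 214 FPKM in control libraries was mostly Aldoc, the 1 that rose (179 ± 5.60 FPKM in Nfia cells and 116 ± 9.86 FPKM in control cells), and Gfap and Aldh1l1 fell (-0.51 and -0.50), the call of Gfap ending without control 1, control 2 or control 3 (0.0506 to 0.0856). In bulk RNA, fewer cells of a type and less RNA per cell cannot be told apart, and the part of these cell type markers in the differences of the replication genes was not tested.

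**Figure D3:**
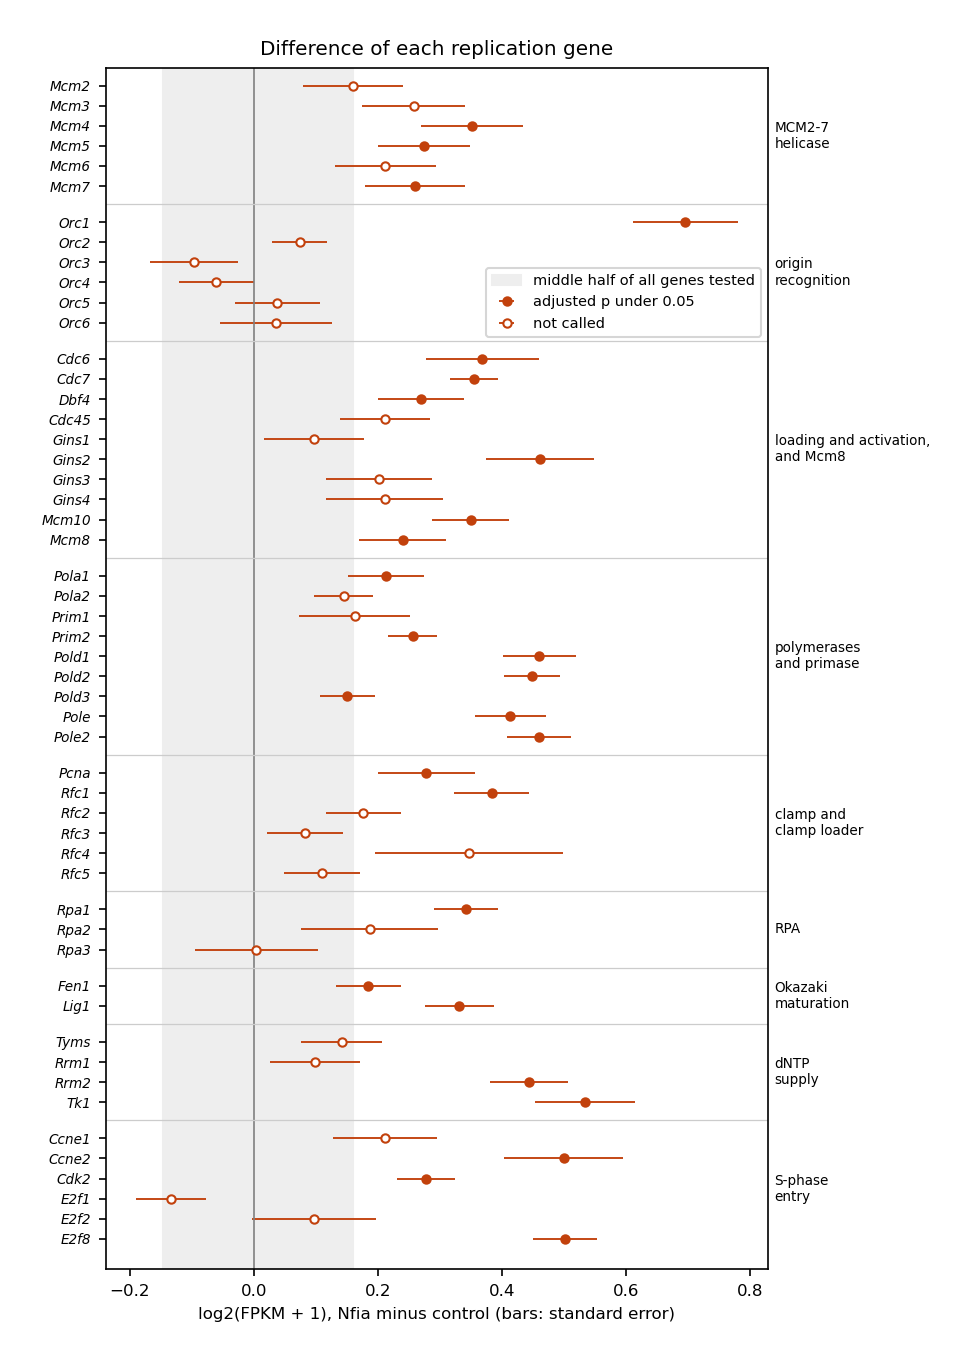
Log2 difference of each of the 52 genes, Nfia minus control (x axis, units of log2(FPKM + 1)), with its standard error as a bar; filled points were called at an adjusted p under 0.05, open points were not, and the grey band spans the quartiles of all tested genes. The 27 called genes lie at positive values, and the lowest of the 52 is E2f1 at -0.13.

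The MCM2-7 ring, the motor that unwinds DNA at the fork, had 3 of its 6 subunits called higher. All 6 differences were positive, 5 of 6 subunits did not overlap between groups, and the median difference was 0.26. Beside these counts and those of the classes below, 16.1% of all genes were called higher. In 24.7% of all genes every Nfia library lay above every control library. Mcm4 had 69.5, 62.5 and 60.4 FPKM in Nfia libraries, against 52.3, 53.2 and 44.9 FPKM in control libraries. Mcm5 had 73.1, 63.1 and 63.2 FPKM in Nfia libraries, against 56.5, 56.8 and 50.9 FPKM in control libraries. Mcm7 had 113, 102 and 98.1 FPKM in Nfia libraries, against 93.9, 88.5 and 78.8 FPKM in control libraries. In each of these 3 genes Nfia 1 was the highest library, control 3 the lowest, and the groups did not overlap. The means were 1.28-fold higher for Mcm4 (log2 difference 0.35, SE 0.08, adjusted p = 0.0186), 1.21-fold for Mcm5 (0.27, SE 0.07, adjusted p = 0.0309) and 1.20-fold for Mcm7 (0.26, SE 0.08, adjusted p = 0.0489). Mcm3, Mcm6 and Mcm2 were not called, at 92.7 ± 7.36, 101 ± 8.98 and 77.7 ± 8.15 FPKM in Nfia cells and 77.4 ± 6.79, 87.0 ± 6.55 and 69.3 ± 3.65 FPKM in control cells (adjusted p of 0.0553, 0.0917 and 0.177). The call of Mcm4 ended without Nfia 1 or Nfia 2 (adjusted p of 0.0556 and 0.0561), that of Mcm5 without any single library (0.0503 to 0.0942) and that of Mcm7 without any but control 1 (0.0598 to 0.127). As a result 0 of 6 subunits were called without Nfia 1 or without Nfia 2 (13% and 10.3% of all genes were called higher). Without Nfia 3, control 2 or control 3, 1 of 6 was called (12.8%, 12.7% and 11% of all genes). With all libraries kept, other filters, pseudocounts, scalings and variance models gave 2 to 4 of 6, with Mcm3 gaining and Mcm7 losing its call in some of them. In these settings 9.74% to 19.6% of all genes were called higher. The replicate block, also with all libraries, gave 5 of 6, with Mcm3 and Mcm6 gained (adjusted p of 0.0322 and 0.0336), and 17% of all genes. Without both libraries numbered 1, 0 of 6 were called (8.04% of all genes), and the adjusted p of Mcm4, Mcm5 and Mcm7 was 0.0907, 0.0921 and 0.0882.

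Within ORC, the complex that marks origins, Orc1 rose and the other 5 subunits were not called. Orc1, an ATP-binding subunit whose level is known to change over the cell cycle, had 7.08, 6.49 and 5.95 FPKM in Nfia libraries, against 3.76, 3.27 and 3.87 FPKM in control libraries. The groups lay far apart, and the mean was 1.79-fold higher in Nfia cells (6.51 ± 0.562 FPKM in Nfia cells and 3.63 ± 0.319 FPKM in control cells, SD, n = 3 each; log2 difference 0.70, SE 0.08, adjusted p = 0.00187). Orc2 had 31.7, 31.8 and 29.9 FPKM in Nfia libraries and 30.5, 29.2 and 28.9 FPKM in control libraries (log2 difference 0.07, adjusted p = 0.25). Orc3 had 17.7, 16.5 and 17.2 FPKM in Nfia libraries and 19.2, 16.5 and 19.6 FPKM in control libraries (log2 difference -0.10, adjusted p = 0.344). Both core subunits overlapped between groups. Orc4, Orc5 and Orc6 averaged 22.3, 18.9 and 49.5 FPKM in Nfia cells and 23.3, 18.5 and 48.1 FPKM in control cells, with adjusted p from 0.481 to 0.793. The median difference of the 6 subunits was 0.04. The span of Orc1 (chromosome 4, 108575705 to 108616030, GRCm38.p6) overlaps Prpf38a and Gm12743; reads of overlapping genes cannot be told apart if strand was not used in the counting.

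Of the 10 genes that load or activate the helicase, with Mcm8, 6 rose and the median difference was 0.25. Cdc7, the kinase that phosphorylates the MCM ring, had 23.9, 22.8 and 23.5 FPKM in Nfia libraries, against 18.1, 17.9 and 18.1 FPKM in control libraries. Both groups were tight and well apart (1.29-fold, log2 difference 0.36, SE 0.04, adjusted p = 0.00131). Mcm10, which helps the assembled helicase to start, had 19.3, 19.4 and 16.9 FPKM in Nfia libraries, against 14.5, 14.5 and 13.9 FPKM in control libraries (1.30-fold, log2 difference 0.35, SE 0.06, adjusted p = 0.00723). Gins2, a subunit of the GINS complex of the active helicase, had 55.0, 57.3 and 45.1 FPKM in Nfia libraries, against 37.8, 37.8 and 37.4 FPKM in control libraries (1.39-fold, log2 difference 0.46, SE 0.09, adjusted p = 0.00886). In Mcm10 and Gins2 the lowest Nfia library was Nfia 3, still above all control libraries.

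The loader Cdc6 averaged 12.01 ± 1.52 FPKM in Nfia cells and 9.04 ± 0.528 FPKM in control cells (SD, n = 3 each; 1.33-fold, adjusted p = 0.0230). Dbf4, the activating partner of Cdc7, averaged 46.9 ± 3.33 FPKM in Nfia cells and 38.8 ± 2.44 FPKM in control cells (1.21-fold, adjusted p = 0.0262). Mcm8, a relative of the ring subunits known for its part in recombination repair, averaged 6.86 ± 0.399 FPKM in Nfia cells and 5.66 ± 0.405 FPKM in control cells (1.21-fold, adjusted p = 0.0397). Cdc45 and the GINS subunits Gins1, Gins3 and Gins4 were not called, with log2 differences from 0.10 to 0.21 and adjusted p from 0.0652 to 0.399; Cdc45 was called higher without Nfia 3 (0.0254) and Gins3 without Nfia 2 (0.0397). The call of Cdc6 ended without Nfia 1, Nfia 2, control 1 or control 3 (adjusted p from 0.0504 to 0.0825). That of Dbf4 ended without any library but Nfia 1 (0.0507 to 0.0870), and that of Mcm8 without any but control 1 (0.0563 to 0.133). This left 3 of the 10 genes called without control 3 (11% of all genes). Without both libraries numbered 1, 2 of the 10 were called (8.04% of all genes), and the adjusted p was 0.0915 for Gins2 and 0.0747 for Mcm10.

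The polymerases and primase, which make the primers and the new strands, had the largest number of calls: 7 of 9 rose, 8 of 9 did not overlap, and the median difference was 0.26. Pold2, an accessory subunit of polymerase delta, had 62.0, 62.1 and 60.8 FPKM in Nfia libraries, against 43.1, 47.2 and 44.5 FPKM in control libraries. Its groups were separated by far more than either spread (1.37-fold, log2 difference 0.45, SE 0.05, adjusted p = 0.000955). Pole2, an accessory subunit of polymerase epsilon, had 20.04, 20.3 and 21.8 FPKM in Nfia libraries, against 15.4, 14.3 and 14.6 FPKM in control libraries (1.40-fold, log2 difference 0.46, SE 0.05, adjusted p = 0.00135). Pold1, the catalytic subunit of polymerase delta, had 30.6, 27.3 and 27.7 FPKM in Nfia libraries, against 21.2, 20.9 and 19.4 FPKM in control libraries (1.39-fold, log2 difference 0.46, SE 0.06, adjusted p = 0.00225). In Pole2 the highest library was Nfia 3, unlike the ring genes, and in Pold1 it was Nfia 1.

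Pole, the catalytic subunit of the leading-strand polymerase, averaged 12.02 ± 0.237 FPKM in Nfia cells and 8.79 ± 0.591 FPKM in control cells (SD, n = 3 each; 1.37-fold, adjusted p = 0.00295). Prim2, the large primase subunit, averaged 29.1 ± 0.407 FPKM in Nfia cells and 24.2 ± 0.618 FPKM in control cells (1.20-fold, adjusted p = 0.00420). The catalytic subunit of polymerase alpha, Pola1, and the delta subunit Pold3 rose less, by 1.17-fold and 1.12-fold (adjusted p of 0.0379 and 0.0416), and these calls ended without any library but control 1 for Pola1 (0.0559 to 0.121) and without any single library for Pold3 (0.0616 to 0.123). Pola2 and Prim1 were not called, with log2 differences of 0.15 and 0.16 and adjusted p of 0.0576 and 0.208.

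In the clamp and clamp loader, Rfc1 and Pcna rose, 4 of 6 were not called, and the median difference was 0.23. Rfc1, the large subunit that opens the clamp, had 38.6, 38.4 and 35.5 FPKM in Nfia libraries, against 29.7, 29.4 and 26.5 FPKM in control libraries (1.31-fold, log2 difference 0.38, SE 0.06, adjusted p = 0.00462). Pcna, the clamp that holds polymerases on DNA, was the most abundant of the 52 genes, at 368, 336 and 301 FPKM in Nfia libraries, against 269, 282 and 274 FPKM in control libraries. The control libraries were close together while the Nfia libraries spread widely above them (1.22-fold, log2 difference 0.28, SE 0.08, adjusted p = 0.0350). Rfc2 had 61.5, 59.2 and 55.4 FPKM in Nfia libraries and 53.3, 53.8 and 48.4 FPKM in control libraries; the groups did not overlap, but the gene was not called (log2 difference 0.18, adjusted p = 0.0649). Rfc4 spread from 42.2 to 64.5 FPKM among the Nfia libraries, with means of 53.4 ± 11.2 FPKM in Nfia cells and 41.3 ± 4.18 FPKM in control cells (adjusted p = 0.128), and Rfc3 and Rfc5 had log2 differences of 0.08 and 0.11. The call of Pcna ended without Nfia 1, Nfia 2, control 1, control 2 or control 3 (adjusted p from 0.0730 to 0.108), and that of Rfc4 was gained without Nfia 3 (0.0323). Pcna has 2 named pseudogenes, Pcna-ps1 and Pcna-ps2, whose reads the counting could share with it.

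RPA coats single-stranded DNA behind the helicase as a complex of the 3 subunits Rpa1, Rpa2 and Rpa3, and only its large subunit was called. Rpa1 had 69.3, 66.7 and 66.6 FPKM in Nfia libraries, against 52.6, 56.5 and 50.3 FPKM in control libraries (1.27-fold, log2 difference 0.34, SE 0.05, adjusted p = 0.00411). Rpa2 had 47.6, 40.6 and 37.5 FPKM in Nfia libraries and 40.2, 37.8 and 32.0 FPKM in control libraries, with overlap (log2 difference 0.19, adjusted p = 0.243). Rpa3 had 88.1, 85.6 and 67.9 FPKM in Nfia libraries and 82.0, 76.2 and 81.2 FPKM in control libraries (log2 difference 0.00, adjusted p = 0.981). In Rpa3 the lowest of all 6 libraries was Nfia 3. The call of Rpa1 ended without both libraries numbered 1 (adjusted p = 0.0536).

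Both genes of Okazaki fragment maturation rose. Lig1, the ligase that seals the fragments, had 68.9, 60.8 and 62.2 FPKM in Nfia libraries, against 51.3, 51.1 and 49.3 FPKM in control libraries (1.26-fold, log2 difference 0.33, SE 0.06, adjusted p = 0.00596). Fen1, the nuclease that trims their flaps, had 47.0, 45.2 and 42.5 FPKM in Nfia libraries, against 41.2, 39.0 and 37.96 FPKM in control libraries (1.14-fold, log2 difference 0.18, SE 0.05, adjusted p = 0.0375). In both genes the groups did not overlap. The call of Fen1 ended without Nfia 1, Nfia 2, control 2 or control 3 (adjusted p from 0.0949 to 0.113).

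Among the 4 enzymes of deoxynucleotide supply, Rrm2 and Tk1 rose. Rrm2, the small subunit of ribonucleotide reductase whose level is tied to S phase, had 198, 188 and 186 FPKM in Nfia libraries, against 143, 149 and 129 FPKM in control libraries (1.36-fold, log2 difference 0.44, SE 0.06, adjusted p = 0.00318). Its partner Rrm1, the large subunit, was not called, at 100 ± 6.04 FPKM in Nfia cells and 93.8 ± 7.41 FPKM in control cells (SD, n = 3 each; log2 difference 0.10, adjusted p = 0.338). Tk1, the cytosolic thymidine kinase of the salvage route, had 53.7, 53.2 and 45.4 FPKM in Nfia libraries, against 34.5, 37.2 and 32.4 FPKM in control libraries (1.46-fold, log2 difference 0.53, SE 0.08, adjusted p = 0.00407). Tyms, which makes thymidylate anew, had 19.5, 17.8 and 16.8 FPKM in Nfia libraries and 16.8, 15.3 and 16.6 FPKM in control libraries. The lowest Nfia library and the highest control library of Tyms were almost equal, and the gene was not called (log2 difference 0.14, adjusted p = 0.149); it has a named pseudogene, Tyms-ps. Without both libraries numbered 1 the call of Tk1 ended (adjusted p = 0.0563).

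Of the 6 regulators of S-phase entry, 3 rose. E2f8, an atypical E2F that represses E2F targets late in S phase, had 15.3, 15.0 and 14.8 FPKM in Nfia libraries, against 9.73, 10.9 and 10.3 FPKM in control libraries, with tight groups (1.46-fold, log2 difference 0.50, SE 0.05, adjusted p = 0.00105). Cdk2, the kinase that cyclin E activates, had 45.9, 41.8 and 43.5 FPKM in Nfia libraries, against 35.1, 36.6 and 35.9 FPKM in control libraries (1.22-fold, log2 difference 0.28, SE 0.05, adjusted p = 0.00596). Ccne2, a cyclin E gene, had 30.4, 29.5 and 29.97 FPKM in Nfia libraries, against 22.9, 17.7 and 22.6 FPKM in control libraries (1.42-fold, log2 difference 0.50, SE 0.10, adjusted p = 0.00925). In Ccne2 the spread lay in the control group, where control 2 was low. The other cyclin E gene, Ccne1, averaged 25.004 ± 3.02 FPKM in Nfia cells and 21.4 ± 0.795 FPKM in control cells and was not called (adjusted p = 0.0983).

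The activator E2Fs among the 52 genes were not called. E2f1 was singled out after its values were seen, as the gene with the lowest difference: it had 31.5, 27.8 and 29.2 FPKM in Nfia libraries and 33.3, 32.9 and 31.2 FPKM in control libraries (log2 difference -0.13, SE 0.06, adjusted p = 0.117). The highest Nfia library lay just above the lowest control library. E2f2 averaged 6.68 ± 0.853 FPKM in Nfia cells and 6.17 ± 0.622 FPKM in control cells (log2 difference 0.10, adjusted p = 0.499). E2f1 was called lower with upper-quartile scaling (adjusted p = 0.0494, with 17.9% of all genes called lower), and the call of Ccne2 ended without both libraries numbered 1 (0.0572).

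**Figure D4:**
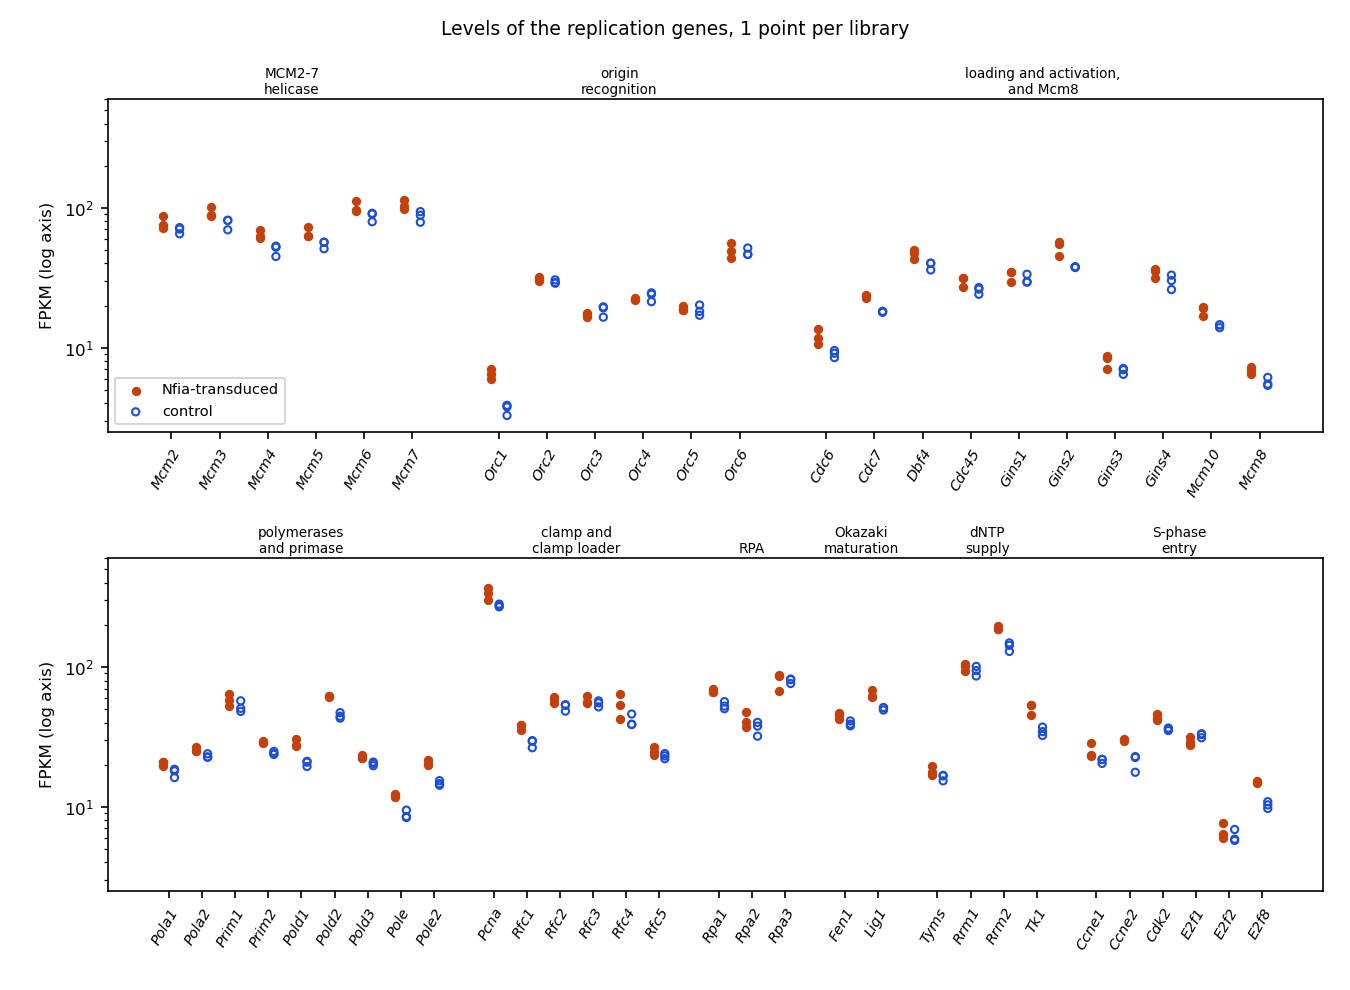
Level of each of the 52 genes in FPKM (log axis), with 1 point per library, Nfia (filled) to the left of control (open). Levels span from Orc1, at 5.95 to 7.08 FPKM in Nfia cells and 3.27 to 3.87 FPKM in control cells, to Pcna at 301 to 368 FPKM in Nfia cells and 269 to 282 FPKM in control cells.

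Levels per length also differed within complexes that act as units. In ORC, the mean level in Nfia cells ran from 6.51 FPKM for Orc1 to 49.5 FPKM for Orc6, and in control cells from 3.63 FPKM for Orc1 to 48.1 FPKM for Orc6. The 6 ring subunits were closer, at 64.1 to 104 FPKM in Nfia cells and 50.1 to 87.1 FPKM in control cells. Pcna was followed by Rrm2, at 191 ± 6.22 FPKM in Nfia cells and 140 ± 10.0 FPKM in control cells (SD, n = 3 each).

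Set against the promoter words, 11 of the 17 genes with an E2F word were called higher, with a median difference of 0.26, and 11 of the 27 genes with a window and no word, with a median of 0.19. The 8 genes with no window in the table used had 5 calls and a median of 0.30. These sets are small, and the difference between them was not tested. Of the genes with a word, Mcm3, Mcm6, Gins3, Orc3, Rfc3 and E2f2 were not called. Of those with a window and no word, Cdc7, Dbf4, Mcm10, Pold2, Pcna, Rfc1, Rpa1, Fen1, Rrm2, Tk1 and E2f8 rose.

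Outside the 52 genes, 102 further genes of replication and of the G1/S machinery were listed, and 101 were tested. Of these, 35 rose (34.7%, against 16.1% of all genes) and 6 fell (15.1% of all genes), with a median difference of 0.17. Licensing and firing factors had 7 of 10 higher and 0 lower: the helicase-related firing factor Recql4 averaged 6.06 ± 0.0532 FPKM in Nfia cells and 4.11 ± 0.393 FPKM in control cells (SD, n = 3 each; log2 difference 0.47, adjusted p = 0.00432), and Mtbp and Topbp1, which act in origin firing, had differences of 0.27 and 0.28. Of the 7 calls, that of Donson ended without Nfia 1, Nfia 2, control 1 or control 3 (adjusted p from 0.0606 to 0.0696). That of Ticrr ended without control 1 or control 3 (0.0541 and 0.0558). Fork protection and checkpoint genes had 4 of 14 higher and 0 lower, and those with the smallest adjusted p were Wdhd1 (0.30), Chtf18 (0.38) and Timeless (0.34). Chromatin replication genes had 4 of 12 higher and 0 lower, among them Dnmt1 and Uhrf1, which copy DNA methylation (0.32 and 0.37), and Chaf1b, of the chromatin assembly factor (0.35). Other polymerase and lagging-strand genes had 4 of 13 higher and 0 lower, and those with the smallest adjusted p were Rev3l (0.26), Polh (0.32) and Rnaseh2b (0.30). Polq also rose (0.33), a call that ended without Nfia 2 (adjusted p = 0.0535).

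The genes that fell in these lists are few and can be named. Among 14 genes of nucleotide metabolism 5 rose and 2 fell, and both that fell are mitochondrial nucleoside kinases: Dguok averaged 10.6 ± 0.480 FPKM in Nfia cells and 13.6 ± 1.21 FPKM in control cells, and Tk2 10.1 ± 0.580 FPKM in Nfia cells and 12.3 ± 0.383 FPKM in control cells (SD, n = 3 each; adjusted p of 0.0143 for both). These calls ended without Nfia 3 for Dguok (adjusted p = 0.0523) and without control 1 for Tk2 (0.0540). Of the 5 that rose, Dctd had the smallest adjusted p (log2 difference 0.30, adjusted p = 0.0116) and kept its call whichever single library was left out. Dtymk lost its call without Nfia 1, Nfia 2, control 2 or control 3 (0.114 to 0.126). Nme2 lost its call without any library but Nfia 3 (0.0746 to 0.127), and Impdh2 without any but control 2 (0.0856 to 0.126). Samhd1 lost its call without Nfia 2, Nfia 3, control 1 or control 3 (0.0502 to 0.0726). Among 14 other E2F, DP and pocket protein genes 4 rose: the E2F partner Tfdp1 (0.28), the atypical E2F gene E2f7 (0.37), Lin54 (0.32) and Rbl1 (0.22). The call of Rbl1 ended without any single library but control 2 (0.0594 to 0.0864). Tfdp2 fell (-0.24, adjusted p = 0.0132), a call that ended without Nfia 2 (0.0568) or control 3 (0.0512). Among 8 topoisomerase and cohesion genes Esco2 (0.49) and Smc1a (0.21) rose, and Top2b, the topoisomerase II known from non-dividing cells and neurons, fell to 117 ± 2.20 FPKM in Nfia cells, against 153 ± 6.38 FPKM in control cells (log2 difference -0.39, adjusted p = 0.00171).

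Of the cyclins and kinases around S phase, Ccna2, the S-phase cyclin, averaged 130 ± 2.47 FPKM in Nfia cells and 106 ± 1.43 FPKM in control cells (SD, n = 3 each; log2 difference 0.29, adjusted p = 0.00258), and Cdk1 had a difference of 0.32 (adjusted p = 0.00412); 3 of the 5 S and G2 genes rose. The call of the third, Ccnb2 (0.17, adjusted p = 0.0407), ended without any single library but Nfia 1 (0.0716 to 0.112). Of 5 G1 genes 2 rose, and the call of Ccnd2 (0.33, adjusted p = 0.0159) ended without Nfia 2 or control 1 (0.0631 and 0.0576). Ccnd1, the G1 cyclin that answers to growth factors, averaged 311 ± 8.85 FPKM in Nfia cells and 169 ± 15.1 FPKM in control cells (log2 difference 0.88, SE 0.07, adjusted p = 0.000488), a larger difference than that of any of the 52 genes. Of 6 CDK inhibitor genes 2 fell and 0 rose, with 3 lower and 1 higher at an unadjusted p under 0.05. Cdkn1c, the inhibitor p57, fell to 23.9 ± 1.89 FPKM in Nfia cells, against 45.6 ± 4.38 FPKM in control cells (log2 difference -0.91, adjusted p = 0.000704). Cdkn1b, the inhibitor p27, averaged 71.9 ± 1.99 FPKM in Nfia cells and 79.8 ± 3.17 FPKM in control cells (adjusted p = 0.0485), a call that ended with any single library left out. Without both libraries numbered 1, 14 of the 101 genes were called higher and 2 lower, against 8.04% and 7.58% of all genes.

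**Figure D5:**
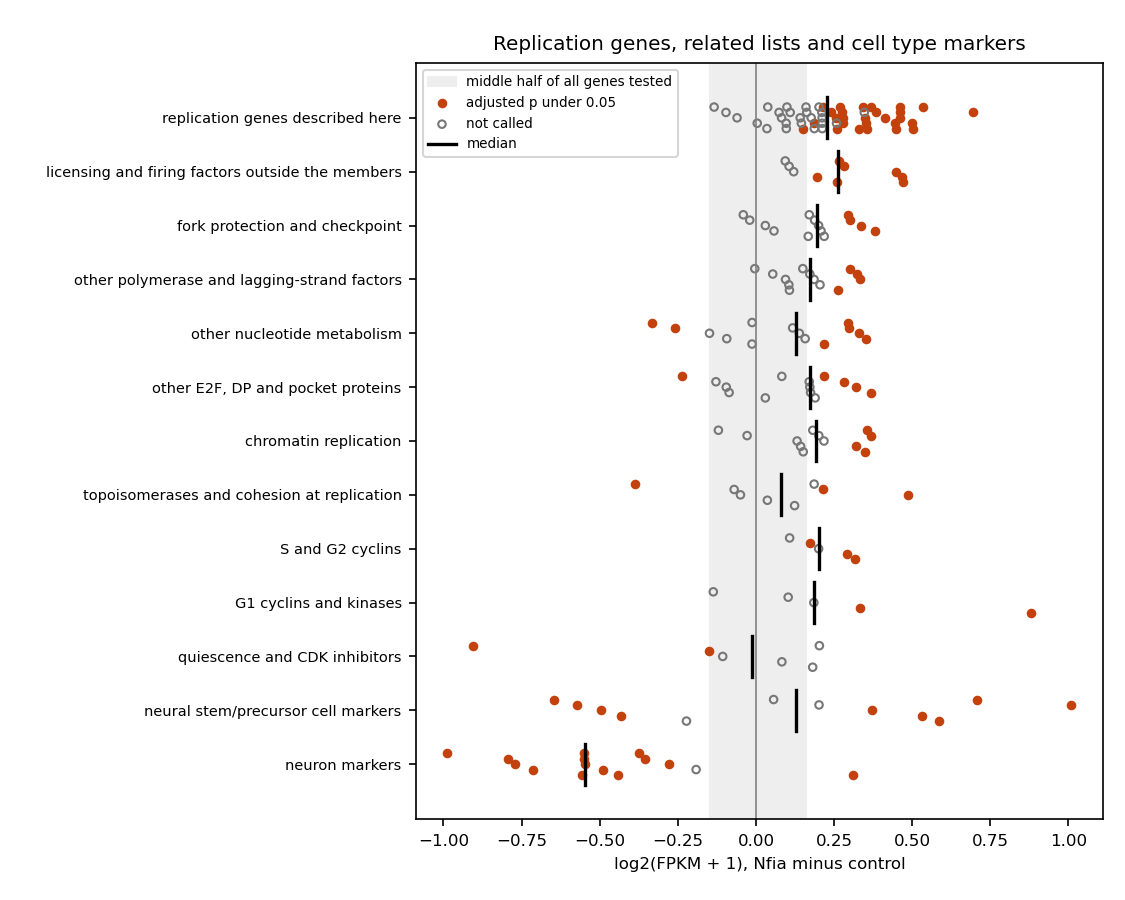
Log2 difference, Nfia minus control, of each tested gene (points) of the 52 replication genes, of the related lists and of 2 cell type marker lists; black bars are medians and the grey band spans the quartiles of all tested genes, -0.15 to 0.16. The median of the 52 genes is 0.23, that of the neuron markers is -0.55, and Ccnd1 lies at 0.88.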

How the data were processed

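Per the labels' protocols, poly(A) RNA was made into directional libraries. The authors deposited 1 value per symbol and library, taken as FPKM from the values and the tools named; the submitters' processing notes list TopHat, Bowtie version 1, SAMtools, Cufflinks, Cuffdiff and mm10 with no role. The sources used here do not give the annotation, the filters or whether strand was used. Depth in fragments is unknown, so no counting interval is given; FPKM totals were 474010 to 511700. FPKM is a share of a library. The ChIP samples are not analysed here.

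Genes averaging 1 FPKM or more over the 6 libraries were compared on log2(FPKM + 1), a scale that understates changes of low genes, with limma 3.58.1 in R 4.3.3 (lmFit, eBayes with trend; two-sided, with 4 residual degrees of freedom and Benjamini-Hochberg adjustment over all 12537 genes, threshold 0.05). Fold values are ratios of mean FPKM. The scripts were tested on simulated data. Alternatives were other pseudocounts, filters, scalings and variance models, a replicate block and each library left out. The 52 genes and all lists were chosen with earlier results of these data known. Values per library are given for the 3 genes with the smallest adjusted p in each class; in related lists up to 3 genes are named, with any called against the list's direction. Other named genes were chosen after their values were seen. All 52 symbols matched RefSeq GRCm38.p6, and the spans of 24 overlap another gene. The intermediate progenitor marker list is not reported here.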

Additional observations from a re-analysis of the deposited data

How the results depend on the processing

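Over the 16 alternatives, 723 of the 832 pairs of gene and setting among the 52 genes kept direction and call. Of the other pairs, 80 lost and 18 gained a call, and 11 changed sign. The cause of these changes was not tested. All 27 genes called higher kept their sign. With single libraries left out, genes called higher numbered 1290 to 1625 and genes called lower 1251 to 1572 over all genes (lowest without Nfia 2), against 2020 and 1898. With both libraries numbered 1 left out, which leaves 4 libraries, 1008 genes were called higher and 950 lower, among the 52 genes 13 higher, and among the related genes 14 higher and 2 lower. With upper-quartile scaling 1 of the 52 genes, E2f1, was called lower.

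Among genes not called, Mcm3 was called higher with a pseudocount of 0.1 (adjusted p = 0.0494), quantile normalization (0.0285) or library quality weights (0.0450), which gave 4 of 6 ring subunits. Quality weights also gained Cdc45 (0.0172), Rfc2 (0.0255) and Rfc4 (0.0444), and a mean of at least 5 FPKM gained Pola2 (0.0473). Mcm7 lost its call with no filter (0.0753), upper-quartile scaling (0.0553) or no variance trend (0.0646). The share of all genes called higher was 16.5%, 15.4% and 19.6% with the pseudocount of 0.1, quantile normalization and quality weights.

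Sign changes touched genes that were not called. The log2 difference lay between -0.015 (without control 2) and 0.10 for Orc5, between -0.050 (without Nfia 1) and 0.12 for Orc6, and between -0.064 (without Nfia 1) and 0.12 for Rpa3 with single libraries left out. Rpa3 stood at -0.030 with upper-quartile, -0.0035 with median-of-ratios and -0.012 with quantile scaling. Without both libraries numbered 1 the values were -0.00054 for Orc6, -0.045 for Rpa3 and -0.019 for E2f2.

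The labels do not say whether libraries of the same number were prepared together. Over all tested genes, the deviations of same-numbered libraries correlated at 0.0264, -0.0058 and 0.0461. No Nfia library correlated best with the control library of its own number. Among the 52 genes, however, the library numbered 3 was the lowest of its group in 33 genes in both groups. The part of a shared preparation by number was not tested. With the replicate block, 32 of the 52 genes were called higher, 5 of the 6 ring subunits among them, with 2130 genes higher and 1916 lower over all genes. Depth limits genes of low level most, and its size in fragments is unknown.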
